A study of Mus musculus with 4 samples.

Results

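The cadherins and protocadherins are cell-surface proteins that join cells through repeated extracellular domains, and 93 of the 46983 gene rows in the deposited count tables belong to them by symbol (a symbol that begins with Cdh and a digit or with Pcdh, with antisense, opposite-strand and pseudogene symbols left out). They comprise 23 Cdh genes, 12 protocadherins that lie apart from one another and 58 clustered protocadherins, of which 14 are alpha, 22 beta and 22 gamma. Their RNA was followed in 4 single-nucleus RNA-seq libraries from the brain of male C57Black/6 mice, 3 months old: a sham control, and brains taken at day 1, 3 or 7 of permanent middle cerebral artery occlusion (MCAO), a surgical model of ischaemic stroke in which the vessel is coagulated and cut. The submitters state that this operation gives small lesions of the parietal cortex, and that each library was made from 3 forebrain hemispheres pooled before nuclei were isolated. Each condition is therefore 1 library with no replicate, no test across animals was possible, and every interval given below is a 95% interval that covers counting error only.

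Classical cadherins bind the same or a related cadherin on the neighbouring cell in a calcium-dependent way and are tied to the actin cytoskeleton through catenins. In the brain, different neurons and glia carry different sets of the type II cadherins, and the delta protocadherins such as Pcdh9, Pcdh7 and Pcdh17 are expressed in region-specific patterns. The clustered protocadherins are made from large tandem arrays in which each first exon has its own promoter and is spliced to constant exons shared by the whole array, and neurons use different sets of them. Cdh23 and Pcdh15 together form the tip link of the hair bundle in the inner ear.

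Several properties of the libraries bear on what follows. The tables held 23285489 to 42963698 unique molecular identifiers (UMIs, the unit counted) per library, of which 52.2% to 60.5% lay in barcodes called as nuclei, and 2118, 1019, 3096 and 1573 nuclei were kept from the sham, day 1, day 3 and day 7 libraries after probable doublets were removed. The median nucleus of the day 1 library held 11024 UMIs, and those of the other libraries 5500 to 7025. Of 7797 distinct barcodes called, 9 were called in more than 1 library. Before doublets were removed, 3177 nuclei were called in the library labelled day 3 and 1593 in that labelled day 7. The study's own breakdown by day has the larger of these libraries last in time, which goes against the labels. Its account also places the peak of reactive microglia at the middle time point, which goes with the labels if that peak is read from the reactive genes Apoe and Spp1. Apoe and Spp1, genes of reactive microglia, were highest in microglia of the library labelled day 3, at 549.6, 246, 3110 and 2098 CPM for Apoe and 38.2, 237, 569.5 and 333 CPM for Spp1 in the order sham, day 1, day 3, day 7. P2ry12, a gene of homeostatic microglia, did not mirror them. It was at 688, 391.5, 536 and 491 CPM in the same order, lowest at day 1 and higher at day 3 than at day 7. Whether the labels of these libraries are exchanged cannot be told from these measures. The deposited labels were kept, and an exchange would swap every day 3 value below with its day 7 value. The labels also describe the control tissue both as intact cortex and, like the others, as forebrain hemispheres. The sham library held 323 nuclei of striatal projection neuron type.

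Nuclei were clustered without the 93 genes and without the pathway genes described further on, and each cluster was named from a fixed marker list, so the names stand for likeness to a cell type (glutamatergic neuron-like and so on). In all, 11 classes were named in this way: glutamatergic neurons (506, 267, 834 and 402 nuclei in the sham, day 1, day 3 and day 7 libraries), striatal projection neurons of the Drd2 type (323, 112, 362 and 184), GABAergic interneurons (109, 59, 139 and 87), other subcortical neurons led by Baiap3, Ebf2 and Sim1 (228, 113, 265 and 167), astrocytes (149, 61, 219 and 68), oligodendrocytes (321, 160, 430 and 256), oligodendrocyte precursors (57, 34, 97 and 46), microglia (88, 44, 187 and 95), and the small endothelial, ependymal and fibroblast classes with 6 to 74 nuclei a library. Another 7 clusters, with 11.7% to 13.9% of the nuclei of each library, stayed unnamed. UMIs of a gene were summed over the nuclei of a class and divided by the class total to give CPM, the UMIs of the gene per 1000000 UMIs of the class. All sets of 4 values below are in the order sham, day 1, day 3, day 7.

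Of the 93 genes, 35 had at least 1 UMI in nuclei and 30 had at least 50, and the other 58 were listed at 0 in every nucleus of every library. The 58 rows at 0 were Cdh15 and 57 of the 58 clustered protocadherins. The clustered row with UMIs was Pcdha1, the first of the alpha array, with 93 UMIs over 4 libraries. The same 58 rows were those in which every base of the gene body was also covered by another gene of the same strand, so that no part of the sequence belonged to that gene alone. Pcdha1 had 9021 bases of its own, 3.50% of its 257.5 kb. All 34 detected genes outside the clusters had bases of their own.

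The same pattern held over the whole table. Of 5241 genes with no base of their own, 5164 (98.5%) were at 0 UMIs, against 33.1% of the 41247 genes that had at least 1. Among protein-coding genes other than the cadherins and protocadherins, 318 of 330 without a base of their own (96.4%) were at 0, against 15.3% of those with one. The clusters span 911.7 kb, and 3 annotated genes of 857.4 to 887.5 kb (Gm42416, Gm37013 and Gm37388) each run over all 58 clustered rows on the same strand and also held no UMI. Genes on the opposite strand within that span were counted, Gm26672 with 692, 602, 710 and 646 UMIs and Gm10544 with 282, 200, 247 and 234. Strand was used in the counting, since 3816 of 5033 genes (75.8%) that share every base with the other strand but not with their own had UMIs. The zeros of the clustered protocadherins therefore stand in a table where genes without a base of their own are nearly always at 0, and they do not measure the level of these RNAs.

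**Figure D1:**
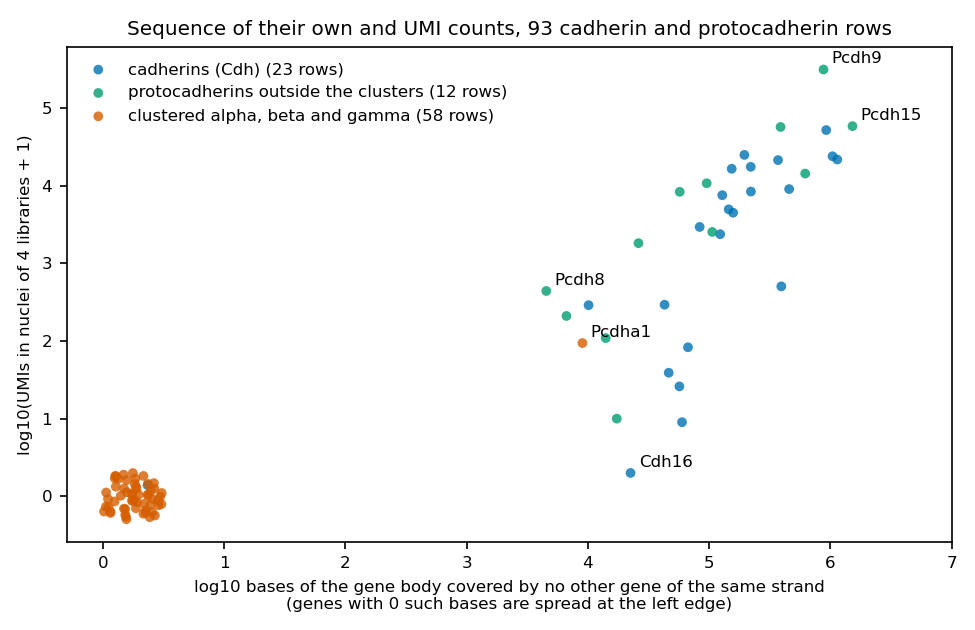
UMIs in nuclei of the 4 libraries, as log10(UMIs + 1), against the log10 number of bases of each gene body that no other gene of the same strand covers. Each point is 1 of the 93 rows. The 58 rows without a base of their own, spread out at the lower left so that they can be seen, are all at 0 UMIs, and the 35 rows with such bases all have UMIs, from 1 (Cdh16) upward, with Pcdha1 low among them.

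The detected genes together held 685271 UMIs, or 1.08%, 0.995%, 1.12% and 1.02% of all UMIs in nuclei of the sham, day 1, day 3 and day 7 libraries. Pcdh9 alone held 45.7% of them, at 5002, 4470, 5235 and 4489 CPM over all nuclei. Next came Pcdh15 with 8.52%, Pcdh7 with 8.31% and Cdh18 with 7.58%. At the other end, Cdh16 had 1 UMI, Cdh17 had 8, Pcdh12 had 9, Cdh26 had 25 and Cdh3 had 38. These shares may depend on gene length as well as level, since nuclear counts include unspliced RNA and the genes differ widely in length, up to 1550.4 kb (Pcdh15). The part of length was not tested, and levels of different genes were compared per length of gene body. On that scale Pcdh9 stayed the leading member in most classes, at 1705 CPM per 100 kb in oligodendrocytes and 671 in glutamatergic neurons. Cdh5, the cadherin of endothelial junctions, led in endothelial cells at 879 CPM per 100 kb, and Cdh1, the epithelial cadherin, had the highest mean in fibroblasts at 348, though in the day 3 library, with the most fibroblast nuclei, it was at 170.3 and Pcdh7 at 349.

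**Figure D2:**
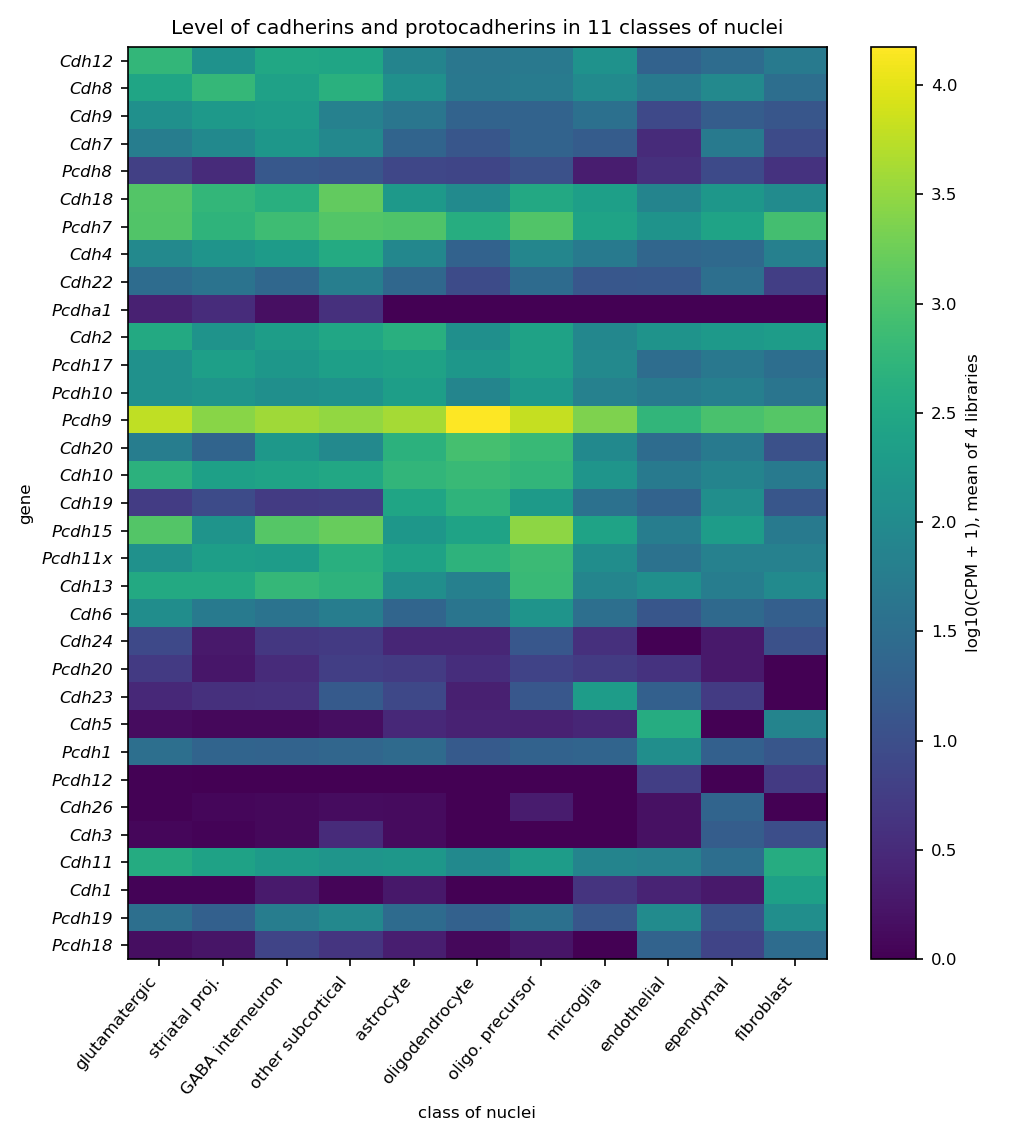
Mean level over the 4 libraries, as log10(CPM + 1), of each detected gene that reached 1 CPM in at least 1 class (rows, ordered by the class in which the gene was highest) in 11 classes of nuclei (columns). Pcdh9 is bright in every column, while Cdh5, Cdh1 and Cdh23 are bright mainly in endothelial cells, fibroblasts and microglia.

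A member was called separated when its CPM in every library of 1 class was above its CPM in every library of every other class, over the 8 classes with at least 20 nuclei in each library. Of 28 members with enough counts (50 UMIs over those classes), 9 were separated (32.1%), against 21.9% of all genes treated in the same way. Separation was found in oligodendrocytes for Cdh20, Cdh19 and Pcdh9, in oligodendrocyte precursors for Pcdh15, in microglia for Cdh23, in other subcortical neurons for Cdh4 and Cdh22, and in glutamatergic neurons for Cdh11 and Cdh12. The 4 libraries are 4 conditions and not replicates, and this is a description of levels with no test.

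The start regions of the separated glial genes are shown because each of these genes had its highest level in 1 class in all 4 libraries. Each line gives the 250 bases before the RefSeq start of the gene in GRCm38.p6, read 5′ to 3′ on the strand of the gene, with CG pairs in capitals.
Cdh20, chr1:104768270-104768519, plus strand: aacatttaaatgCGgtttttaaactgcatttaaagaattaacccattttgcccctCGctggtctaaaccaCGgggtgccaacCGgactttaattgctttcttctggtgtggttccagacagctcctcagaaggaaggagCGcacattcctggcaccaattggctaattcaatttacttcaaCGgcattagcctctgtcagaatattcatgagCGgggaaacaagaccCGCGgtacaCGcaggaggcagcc
Cdh23, chr10:60696491-60696740, minus strand: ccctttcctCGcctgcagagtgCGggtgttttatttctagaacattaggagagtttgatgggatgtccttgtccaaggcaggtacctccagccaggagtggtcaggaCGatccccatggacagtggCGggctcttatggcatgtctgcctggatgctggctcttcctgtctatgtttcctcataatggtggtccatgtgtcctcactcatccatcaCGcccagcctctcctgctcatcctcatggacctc
Pcdh15, chr10:73821617-73821866, plus strand: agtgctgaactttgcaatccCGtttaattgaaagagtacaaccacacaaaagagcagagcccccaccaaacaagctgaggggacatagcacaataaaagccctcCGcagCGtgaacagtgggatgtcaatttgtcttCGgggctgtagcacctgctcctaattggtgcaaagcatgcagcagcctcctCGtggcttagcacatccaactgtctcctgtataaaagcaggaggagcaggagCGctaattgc
Pcdh9, chr14:93890680-93890929, minus strand: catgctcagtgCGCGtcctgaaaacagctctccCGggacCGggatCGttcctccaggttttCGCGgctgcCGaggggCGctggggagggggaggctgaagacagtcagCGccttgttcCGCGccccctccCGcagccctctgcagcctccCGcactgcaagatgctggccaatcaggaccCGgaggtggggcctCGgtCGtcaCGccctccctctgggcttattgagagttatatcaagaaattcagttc

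The Pcdh9 window was the richest of them in CG pairs, with 18 (more than 78.3% of all windows of this kind) and 63.6% G and C. Cdh20 had 10 CG pairs, Pcdh15 had 6 and Cdh23 had 5, against a median of 6 over all 32851 windows, and their shares of G and C were 47.6%, 50.4% and 54.4% against a median of 52.4%. The Pcdh15 start used by RefSeq lies inside the longer gene body of the annotation. Both strands were searched for short cores of letters. GGAAGT is found in 19.7% of all windows, ACAAAG in 16.5%, ACAATG in 10.7% and CAGCTG in 13%, and none of them was in the 4 windows shown, which says nothing about the factors that bind such letters. Cdh19 was not shown. In all, 22 of the 93 genes matched an entry of the table of start regions.

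Oligodendrocytes carried 3 separated members. Pcdh9 (ENSMUSG00000055421.8, chr14:93013410-93890679, minus strand), a delta protocadherin, stood at 15200, 13810, 17190 and 13630 CPM in oligodendrocytes, and the next class, the precursors, reached 5660 to 7227 CPM. Its lowest class was microglia, at a mean of 2365 CPM, of which up to 552 CPM was the estimate for RNA free in the suspension. Cdh20 (ENSMUSG00000050840.8, chr1:104768529-104995481, plus strand), a type II cadherin, was at 874, 813, 842 and 926 CPM in oligodendrocytes. Its precursor values, 424, 768, 731 and 721 CPM, came closest, and striatal projection neurons were lowest at a mean of 21.1 CPM. Cdh19 (ENSMUSG00000047216.8, chr1:110888326-110977584, minus strand), a neighbour of Cdh20 and Cdh7 on the same chromosome, was at 450.2, 465, 559 and 577 CPM and was followed by astrocytes at 196 to 349 CPM. The mean of Cdh19 in GABAergic interneurons was 4.40 CPM. Cdh10 was also highest on average in oligodendrocytes, at 594 to 754 CPM, but precursors reached 666 CPM and the classes overlapped.

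Oligodendrocyte precursors had the highest level of Pcdh15 (ENSMUSG00000052613.16, chr10:73099342-74649737, plus strand), at 2919, 3014, 2892 and 2820 CPM. The next class, the other subcortical neurons, lay at 1418 to 1861 CPM, and striatal projection neurons were lowest at a mean of 142.6 CPM. Precursors also had the highest mean of Cdh13, a cadherin without a cytoplasmic part that is anchored to the membrane by a lipid, at 652, 719, 698 and 671 CPM. Interneurons spanned 356 to 803 CPM for this gene, so the ranges overlapped. Pcdh11x, the X-linked delta protocadherin, was at 894, 604, 712 and 566 CPM in precursors and overlapped with oligodendrocytes at 314 to 676 CPM. The precursor means of Cdh6, Cdh24 and Pcdh20 were also the highest of the 8 classes, and each overlapped with another class.

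Microglia had the lowest class mean of Pcdh9, Pcdh7, Cdh10, Cdh2 and Pcdh11x, among others, and were set apart by Cdh23 (ENSMUSG00000012819.15, chr10:60302748-60696490, minus strand), known chiefly from the hair cells of the ear. Its level in microglia was 315, 91.6, 229 and 161 CPM, from 66, 22, 96 and 49 UMIs. Other subcortical neurons came next at 8.48 to 19.5 CPM, and oligodendrocytes were lowest at 1.29 CPM. Cdh23 had the widest range of the separated members, 155-fold between the highest and the lowest class mean. The gene Vsir lies in the gene body of Cdh23 on the opposite strand. Strand was used in the counting, and whether RNA of Vsir adds to the Cdh23 counts was not tested. Pcdh15, the tip-link partner of Cdh23, was at 162, 83.3, 214 and 579.7 CPM in microglia, and 1 nucleus gave 70.5% of its UMIs at day 7.

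Other subcortical neurons had separated levels of Cdh4, the retinal cadherin R-cadherin (ENSMUSG00000000305.12, chr2:179442431-179899373, plus strand), at 319.5, 336, 375 and 370.3 CPM, with interneurons next at 138 to 225 CPM. Cdh22 (ENSMUSG00000053166.14, chr2:165111507-165234853, minus strand) was also separated there, at 56.5, 62.3, 61.0 and 57.7 CPM, and striatal projection neurons reached 54.8 CPM. Cdh18, a type II cadherin of neurons, had its highest mean in the same class at 1289, 1533, 1454 and 1751 CPM, yet glutamatergic neurons reached 1410 CPM. Pcdh7 and Pcdh19 were likewise highest on average in this class, at 1028 to 1209 and 78.6 to 95.2 CPM, without separation.

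Glutamatergic neurons had separated levels of Cdh11 (ENSMUSG00000031673.5, chr8:102632095-102785642, minus strand) at 346, 364, 356 and 418 CPM and of Cdh12 (ENSMUSG00000040452.8, chr15:20449265-21589533, plus strand) at 631, 597, 544 and 534 CPM. Striatal projection neurons were the next class for Cdh11, at 238 to 277 CPM, and interneurons the next for Cdh12, at 215 to 366 CPM. Both are type II cadherins. Cdh8, another of them, was highest on average in striatal projection neurons, at 622, 470, 697 and 591 CPM, but other subcortical neurons reached 470.6 CPM. Cdh9 and Cdh7 led in interneurons at 124 to 297 and 101.5 to 201 CPM and overlapped with striatal projection neurons. Cdh2, the neural cadherin N-cadherin, Pcdh10 and Pcdh17 had their highest means in astrocytes, at 346 to 526, 203 to 236 and 199 to 312 CPM, and each overlapped with the next class.

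**Figure D3:**
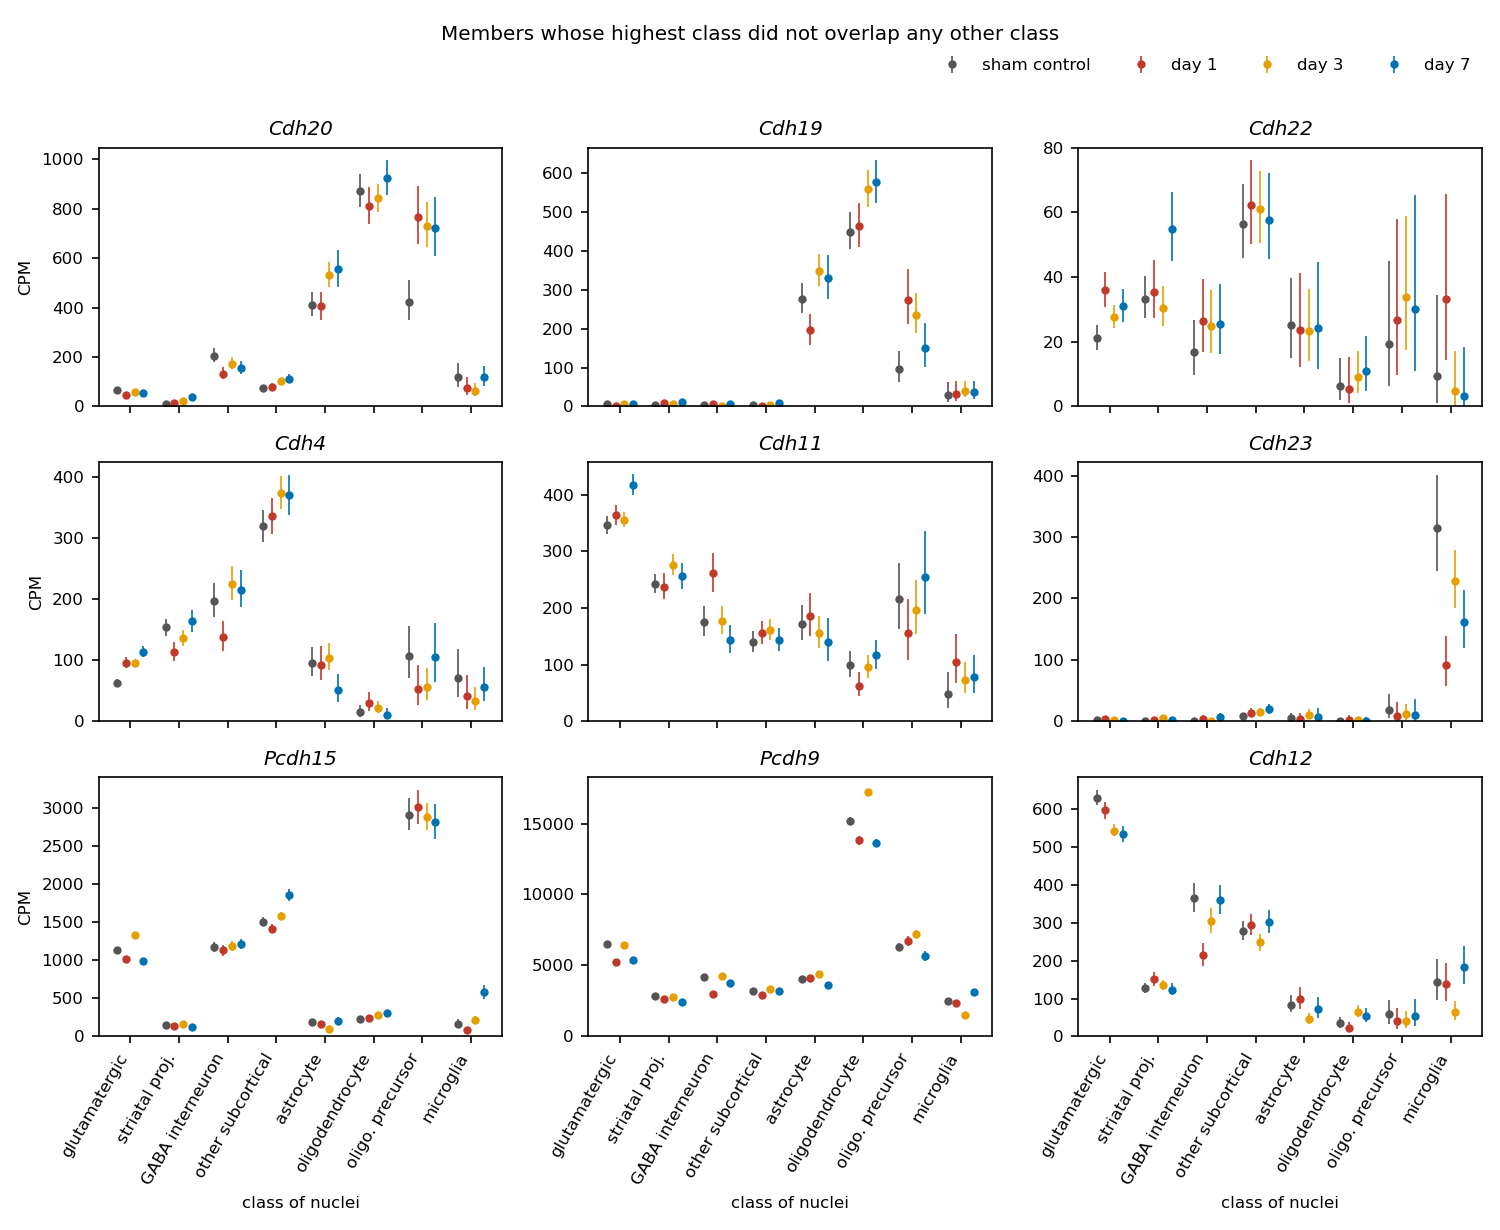
CPM of the 9 separated members in 8 classes of nuclei, 1 panel a gene, with 1 point for each library and bars for the exact 95% Poisson interval. The 4 points of the leading class lie above all points of the other classes in each panel. Among the 9 leading classes, the ratio of the highest to the lowest library is largest for Cdh23 in microglia, which runs from 91.6 CPM at day 1 to 315 CPM in sham.

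Within the neurons, several members differed between subtypes by more than the spread over the 4 libraries. The share of all genes that differ between subtypes in this way was not counted, so the members are not shown to stand out. Deep-layer glutamatergic neurons held Cdh18 at a mean of 3232 CPM (2935 to 3763 CPM), while the upper-layer subtype held 229 to 445 CPM and the Slc17a6 subtype, which uses the subcortical glutamate transporter, 601 to 986 CPM. Cdh11 was also highest in the deep-layer subtype but lowest in the Slc17a6 subtype, with 536 to 709 CPM in deep-layer, 285 to 325 CPM in upper-layer and 165 to 238 CPM in Slc17a6 neurons. Cdh12 and Cdh10 were higher in upper-layer than in deep-layer neurons in every library, Cdh12 at 525 to 680.2 CPM against 265 to 331 CPM and Cdh10 at 454 to 494 CPM against 247 to 281 CPM. Cdh8 ran the other way from Cdh18, at 40.3 to 108 CPM in deep-layer and 508 to 602 CPM in Slc17a6 neurons. Pcdh15 was at 1032 to 1789 CPM in upper-layer and 427 to 633 CPM in deep-layer neurons. Pcdh20, a scarce delta protocadherin, was at 8.17 to 42.6 CPM in dentate granule neurons, of which sham had only 5 nuclei, against 1.72 to 3.49 CPM in upper-layer neurons.

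Interneurons split in the same manner. The Lhx6 subtype had Cdh13 at 449 to 902 CPM and Pcdh15 at 1337 to 1410 CPM, and the Adarb2 subtype 224 to 274 CPM and 512 to 769.6 CPM. Cdh9 was at 189 to 366 CPM in Lhx6 and 33.9 to 109 CPM in Adarb2 nuclei. Cdh11 was ordered the other way, at 260.5 to 441 CPM in Adarb2 and 119 to 147 CPM in Lhx6 nuclei. None of these ranges overlapped between the subtypes, of which Adarb2 had 20 to 50 and Lhx6 34 to 89 nuclei a library. Here too the share of all genes without overlap was not counted.

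The small classes carried the members known from junctions of epithelia and vessels. Cdh5 was at 298, 584, 279 and 347 CPM in endothelial nuclei (46, 19, 123 and 45 UMIs), and Pcdh12, which is also expressed by endothelium, averaged 5.02 CPM there. Cdh1 was at 307, 299, 114 and 210.1 CPM in fibroblasts, from few counts (23, 13, 18 and 13 UMIs), of which 1 nucleus gave 84.6% at day 1 and 50% at day 3. Pcdh1 averaged 115 CPM in endothelial nuclei and Pcdh19 averaged 113 CPM in fibroblasts and 103 CPM in endothelial nuclei. Pcdh18 was highest in fibroblasts, at a mean of 29.3 CPM. Cdh26 and Cdh3 were highest in ependymal nuclei, at means of 21.5 and 16.0 CPM. With 6 endothelial and 10 ependymal nuclei at day 1, no comparison over time was made in these classes.

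Against sham, a member was called higher or lower in a class when its CPM differed at least 1.5-fold and the exact 95% interval of the ratio excluded 1, with at least 50 UMIs in the class over the 4 libraries. This was done in 7 classes, the separation's 8 without the other subcortical neurons, which were not among the classes chosen for it, and gave 142 pairs of member and class for each day. At day 1, 11 pairs were called higher and 18 lower, against 5.21% and 4.32% of all gene and class pairs. At day 3, the calls were 15 higher and 11 lower (backgrounds 3.67% and 4.09%), and at day 7 they were 14 higher and 12 lower (3.88% and 4.99%). All 3 days share the sham library. Of the 81 calls, 33 kept their direction and side of the threshold under 9 alternatives (all those planned except thinning of nuclei, the 200-UMI filter and the 2-fold threshold), and these are named class by class. Among the 9, leaving out the filter on low counts could not undo a call, so it is no check on them. Thinning every nucleus to 1000 UMIs leaves far fewer counts and was harder on the calls: of the 78 that then had a ratio, 12 held, 55 kept their direction alone and 11 reversed, and of the 33 calls just mentioned, 7 held, 20 kept their direction alone, 4 reversed and 2 had no ratio. A ratio to sham is followed by its 95% interval in parentheses.

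**Figure D4:**
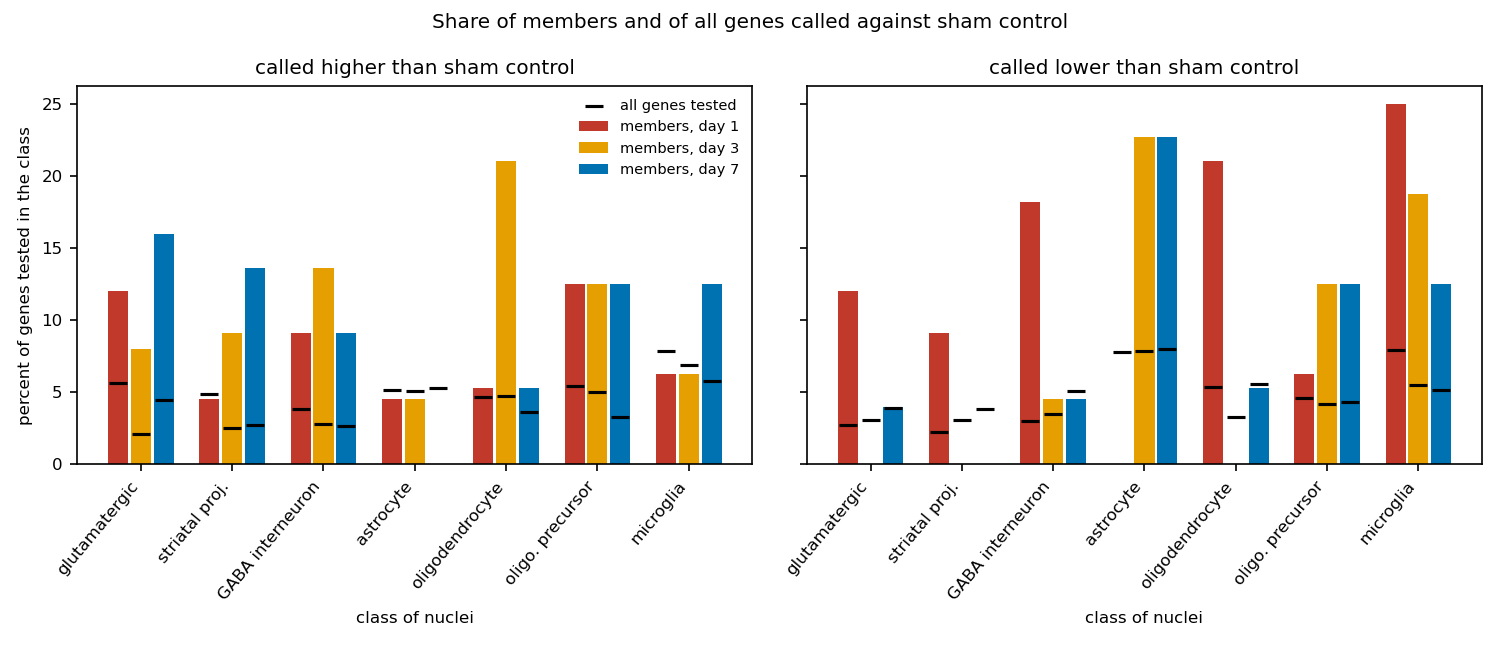
Percent of the members tested in each class that were called higher (left) or lower (right) than sham, as bars by day, with the percent of all genes tested in that class as black marks. Bars and marks can be compared within a class, and each bar rests on 16 to 25 members.

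In glutamatergic neurons 25 members were tested, and the members' median log2 ratio was -0.08, 0.09 and 0.04 at days 1, 3 and 7, against 0.05, -0.04 and -0.04 over all 13455 genes. At day 1, 3 members were called higher and 3 lower (backgrounds 5.67% and 2.74%). Cdh4 was called higher on each day, from 63.3, 95.6, 95.4 and 114 CPM, with ratios of 1.51 (1.31 to 1.74), 1.51 (1.33 to 1.71) and 1.81 (1.58 to 2.07). Cdh22 was 1.70 times the sham level (1.34 to 2.17) at day 1. Pcdh8, a protocadherin induced by neuronal activity, was 3.095 times the sham level (1.67 to 6.04) at day 1, from 15, 39, 39 and 25 UMIs in the 4 libraries. Lower at day 1 were Cdh19 at 0.164 (0.0419 to 0.468), from few counts (29, 4, 53 and 28 UMIs), Cdh9 at 0.658 (0.583 to 0.742) and Pcdh11x at 0.662 (0.595 to 0.737).

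Cdh4 did not keep its direction when nuclei were thinned to 1000 UMIs, with ratios of 0.904, 0.896 and 0.944, and of the other calls in this class those of Cdh9 and Pcdh11x at day 1 and of Cdh13, Pcdh17 and Pcdh11x at day 7 held. Under the 9 alternatives the day 1 calls of Cdh22, Pcdh8, Cdh19 and Cdh9 held, and so did those of Cdh13 at day 3 and of Cdh4, Cdh13, Pcdh17 and Pcdh11x at day 7. At day 3, Cdh4 and Cdh13 were called higher in glutamatergic neurons and no member was called lower (backgrounds 2.1% and 3.09%). Cdh13 stood at 236, 354, 379 and 393 CPM, which is 1.60 times the sham level (1.50 to 1.71) at day 3 and 1.66 (1.55 to 1.78) at day 7. At day 7, 4 members were called higher and 1 lower (backgrounds 4.43% and 3.93%): Cdh4, Cdh13, Pcdh8 at 1.98 (1.00 to 4.04) and Pcdh17 at 1.59 (1.42 to 1.77) were higher, and Pcdh11x was lower at 0.577 (0.515 to 0.645). The Cdh13 difference was larger in the upper-layer subtype, with ratios of 2.30 (2.00 to 2.65) at day 3 and 2.65 (2.27 to 3.09) at day 7, than in the class as a whole. In Slc17a6 neurons the day 7 ratio of Cdh13 was 0.637 (0.456 to 0.888). Pcdh11x at day 1 was at 0.468 (0.385 to 0.566) in the deep-layer and 0.406 (0.257 to 0.630) in the Slc17a6 subtype, while the upper-layer ratio was 1.11 (0.900 to 1.36). The makeup of the class moved with time, as dentate granule neurons were 1.0%, 6.4%, 5.8% and 10.9% of its nuclei and Slc17a6 neurons 7.1%, 9.4%, 7.0% and 12.2%, and the part of this in the class ratios was not tested. Slc17a6 neurons had the highest Cdh4 of the deep-layer, upper-layer and Slc17a6 subtypes in every library, and the day 7 ratio of Cdh4 was 1.84 (1.34 to 2.56) within them, 1.59 (1.22 to 2.07) in upper-layer and 3.79 (2.39 to 6.21) in deep-layer neurons.

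Striatal projection neurons were tested for 22 members. Pcdh11x and Cdh9 were called lower at day 1, at 0.635 (0.554 to 0.725) and 0.657 (0.566 to 0.759), and no member was called lower at day 3 or day 7 (backgrounds for lower 2.27%, 3.04% and 3.83%). The members called higher were Cdh19 at day 1, Cdh20 and Cdh19 at day 3 and Cdh20, Cdh19 and Cdh22 at day 7 (backgrounds 4.87%, 2.5% and 2.71%). Cdh19 was at 2.82, 9.26, 7.19 and 12.2 CPM, so the day 7 ratio was 4.32 (1.94 to 10.6). Cdh20 was at 11.9, 13.1, 21.9 and 37.5 CPM, or 3.15 times the sham level (2.10 to 4.79) at day 7. Both are separated oligodendrocyte genes, and all 13 oligodendrocyte markers were found in these neurons in each library, with sums of 259, 435, 498 and 542 CPM. The sum was lowest in sham, as were Cdh19 and Cdh20, and its part in these calls was not tested. Cdh22 was 1.65 times the sham level (1.25 to 2.18) at day 7. The calls of Cdh19 and Pcdh11x at day 1 and of Cdh20, Cdh19 and Cdh22 at day 7 held under the 9 alternatives. No call in this class held after thinning, where Pcdh11x at day 1 was at 1.04 and Cdh19 had no UMI at day 1, while the Cdh20, Cdh19 and Cdh22 ratios at day 7 were 1.75, 1.75 and 1.98.

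GABAergic interneurons, tested for 22 members, had a median log2 ratio of -0.38 at day 1 against 0.01 over all genes, and 17 of the 22 members lay below sham. Cdh20, Cdh6, Cdh12 and Pcdh11x were called lower at day 1 (background 3.0%). Pcdh11x was at 254, 102, 242 and 222 CPM, with a day 1 ratio of 0.400 (0.312 to 0.510). Cdh6 was lower on all 3 days, at 0.397 (0.232 to 0.654), 0.652 (0.434 to 0.972) and 0.450 (0.273 to 0.722) (backgrounds at days 3 and 7 3.46% and 5.1%). Cdh12 was at 0.588 (0.491 to 0.701) and Cdh20 at 0.645 (0.511 to 0.811). The ratios were also taken within each subtype, and a difference between the subtypes was not tested. In Lhx6 nuclei the day 1 ratio was 0.563 (0.450 to 0.701) for Cdh12, 0.422 (0.314 to 0.560) for Pcdh11x, 0.481 (0.210 to 1.01) for Cdh6 and 0.752 (0.546 to 1.03) for Cdh20, the last 2 with intervals that include 1. In Adarb2 nuclei it was 0.708 (0.510 to 0.982) for Cdh12, 0.495 (0.293 to 0.829) for Pcdh11x, 0.252 (0.118 to 0.503) for Cdh6 and 0.440 (0.310 to 0.622) for Cdh20. The Adarb2 subtype made up 29.4% of interneurons in sham and 42.4% at day 1, and the part of this in the class ratios was not tested.

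Called higher in interneurons were Cdh8 and Pcdh1 at day 1 (background 3.82%), Cdh9, Pcdh1 and Pcdh19 at day 3 (2.8%) and Cdh13 and Pcdh1 at day 7 (2.64%). Pcdh1 was higher on each day, at 9.87, 23.2, 25.7 and 22.2 CPM, with ratios of 2.35 (1.06 to 5.58), 2.60 (1.23 to 5.99) and 2.25 (1.02 to 5.36). Cdh8 was 1.83 times the sham level (1.53 to 2.19) at day 1, but 1 nucleus gave 37.8% of its UMIs and the call was lost without it. Pcdh19, an X-linked protocadherin mutated in a form of epilepsy in people, was 1.72 times the sham level (1.21 to 2.48) at day 3, and Cdh9 was at 1.61 (1.34 to 1.93), with 1.74 (1.43 to 2.12) in Lhx6 and 1.00 (0.587 to 1.72) in Adarb2 nuclei. Cdh13 was at 494, 356, 733 and 803 CPM with a day 7 ratio of 1.62 (1.45 to 1.82), which was 1.56 (1.38 to 1.76) in Lhx6 and 0.900 (0.566 to 1.40) in Adarb2 nuclei. In this class the calls of Cdh6 and Pcdh11x at day 1, Pcdh1 and Pcdh19 at day 3 and Cdh13 and Pcdh1 at day 7 held under the 9 alternatives. After thinning, the day 1 call of Pcdh11x held and no other did, and Cdh12 at day 1 and Cdh6 at day 3 reversed, to 1.17 and 1.10.

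Astrocytes were tested for 22 members. Cdh2, the cadherin of astrocyte and synaptic junctions, was at 349.6, 346, 526 and 485 CPM and was called higher at day 3, at 1.50 (1.28 to 1.76) (background 5.11%). Cdh9 was called higher at day 1, at 1.81 (1.17 to 2.83) (background 5.15%), and no member was higher at day 7 (background 5.26%). None was lower at day 1 (background 7.81%), while 5 were lower at day 3 and 5 at day 7 (backgrounds 7.86% and 8.02%). The lowest ratios were those of Cdh8 and Cdh9, type II cadherins of neurons. Cdh8 was at 186, 227, 65.1 and 19.4 CPM, with ratios of 0.350 (0.250 to 0.485) at day 3 and 0.104 (0.0441 to 0.211) at day 7. Cdh9 was at 0.203 (0.0864 to 0.425) and 0.0889 (0.0104 to 0.343) on the same days.

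At day 3, Cdh12 was also lower in astrocytes at 0.542 (0.350 to 0.830), Cdh18 at 0.491 (0.380 to 0.632) and Pcdh15 at 0.475 (0.353 to 0.634). At day 7, Cdh7 was lower at 0.182 (0.0206 to 0.756), Cdh4 at 0.528 (0.307 to 0.871) and Cdh13 at 0.424 (0.260 to 0.669). Cdh8 and Cdh18 at day 3 and Cdh8 and Cdh4 at day 7 kept their calls under the 9 alternatives, and all 4 kept their direction but not their call after thinning. Cdh8 is highest in striatal projection neurons, and the 11 markers of those neurons, all found in astrocytes in each library, summed to 1979, 1906, 829 and 572 CPM there. Sham and day 1 were high and day 3 and day 7 low in this sum, and so they were for Cdh8. The sum of the 9 glutamatergic markers in astrocytes did not fall in this way, at 482, 658, 538 and 548 CPM. The part of the striatal signal in the astrocyte calls was not tested.

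Mature oligodendrocytes, tested for 19 members, were the class in which Pcdh11x was higher. Its level was 314, 676, 584 and 420 CPM, and the ratios were 2.15 (1.83 to 2.54) at day 1, 1.86 (1.60 to 2.17) at day 3 and 1.34 (1.13 to 1.59) at day 7. At day 1 the ratio was 1.91 to 2.73 in each of the 4 oligodendrocyte clusters. Called lower at day 1 were Cdh11, Cdh9, Cdh18 and Cdh2 (backgrounds 4.65% higher and 5.39% lower). Cdh2 was at 114, 69.9, 139.5 and 146 CPM, with a day 1 ratio of 0.612 (0.411 to 0.899). Cdh11 was at 0.629 (0.411 to 0.945) and Cdh9 at 0.256 (0.0477 to 0.892). Cdh18 was at 0.368 (0.243 to 0.545) at day 1 and 0.416 (0.291 to 0.587) at day 7, but 44.3% of its sham UMIs came from 1 nucleus.

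At day 3, 15 of the 19 members lay above sham in oligodendrocytes, with a median log2 ratio of 0.29 against -0.01 over all 7885 genes, and 4 were called higher, with none lower (backgrounds 4.71% and 3.26%). Besides Pcdh11x these were Cdh13 at 2.35 (1.58 to 3.57), Cdh9 at 1.96 (1.07 to 3.74) and Cdh12 at 1.88 (1.19 to 3.07). Cdh13 was still a scarce RNA in this class, at 43.6, 66.4, 102 and 49.9 CPM, of which 29.4 CPM at day 3 was the free-RNA estimate. Free RNA was estimated at 12.6%, 12.1%, 16.0% and 11.4% of the UMIs of this class, highest at day 3, and with it subtracted the day 3 calls of Cdh13 and Cdh12 held and that of Cdh9 was lost. At day 7, Pcdh17 was called higher at 1.78 (1.40 to 2.29) and Cdh18 lower (backgrounds 3.63% and 5.55%). The separated members Pcdh9, Cdh20 and Cdh19 were not called on any day, with ratios of 0.909, 1.13 and 0.897 for Pcdh9, 0.930, 0.964 and 1.06 for Cdh20 and 1.03, 1.24 and 1.28 for Cdh19. The calls of Pcdh11x at days 1 and 3 and of Cdh13 and Cdh12 at day 3 held under the 9 alternatives. Those of Pcdh11x also held after thinning, and those of Cdh13 and Cdh12 kept their direction alone.

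In oligodendrocyte precursors 16 members were tested, and Cdh20 was called higher on each day, at 1.81 (1.42 to 2.32), 1.73 (1.38 to 2.17) and 1.70 (1.32 to 2.20). Cdh19 was at 96.4, 275, 236 and 150.3 CPM, with ratios of 2.85 (1.77 to 4.74) at day 1 and 2.45 (1.55 to 4.00) at day 3. Both genes were highest in mature oligodendrocytes, and the 13 oligodendrocyte markers, of which 11 were found in sham precursors (Aspa and Hapln2 were at 0) and all 13 later, summed to 717, 1580, 1969 and 927 CPM in this class. Their part in the Cdh19 and Cdh20 calls was not tested. The backgrounds for higher were 5.41%, 5.01% and 3.26%. Cdh6 was called higher at day 7 at 1.95 (1.18 to 3.27). The calls that held under the 9 alternatives were those of Cdh20 at day 1 and of Cdh19 at days 1 and 3. None of these 3 held after thinning, where the ratios were 1.46 for Cdh20 at day 1 and 0.838 and 1.40 for Cdh19 at days 1 and 3.

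Called lower in precursors were Cdh8 at day 1, Cdh4 and Cdh18 at day 3 and Cdh18 and Pcdh11x at day 7 (backgrounds 4.58%, 4.18% and 4.31%). Cdh18 was at 405, 422, 245 and 245 CPM, with ratios of 0.605 (0.450 to 0.811) and 0.606 (0.423 to 0.859) at days 3 and 7. Pcdh11x was at 0.633 (0.501 to 0.796), Cdh4 at 0.521 (0.278 to 0.959) and Cdh8 at 0.230 (0.0572 to 0.687). Pcdh15, the separated member of this class, was at 1.03 (0.929 to 1.15), 0.991 (0.901 to 1.09) and 0.966 (0.865 to 1.08) of sham on the 3 days and was not called.

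Microglia were tested for 16 members. Cdh23 was called lower at day 1, at 0.290 times the sham level (0.171 to 0.477), and at day 7, at 0.512 (0.346 to 0.752), with a day 3 ratio of 0.725 (0.525 to 1.01). The 14 microglia markers, all found in each library, summed to 10060, 7106, 10520 and 8652 CPM, with day 1 lowest. Their part in the Cdh23 calls was not tested. When only nuclei above 2000 UMIs were kept, neither Cdh23 call was made. At day 1, Cdh8, Pcdh15 and Cdh10 were also called lower and Cdh11 higher (backgrounds 7.95% and 7.88%). Cdh11 at day 1 rested on 1 nucleus with 80.0% of its UMIs, and without it the ratio was 0.672. Cdh8 was at 158, 62.5, 126 and 46.1 CPM, and the 11 markers of striatal projection neurons, where Cdh8 is highest, summed to 1075, 725, 705 and 359 CPM in microglia, with Adora2a or Drd2 at 0 in 3 of the libraries. Their part was not tested.

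At day 3, Cdh20, Pcdh9 and Cdh12 were called lower and Cdh13 higher in microglia (backgrounds 5.49% and 6.86%). Pcdh9 was at 0.611 (0.543 to 0.688) and Cdh20 at 0.538 (0.301 to 0.967). In the larger microglial cluster alone the same ratios were 0.839 (0.715 to 0.986) and 1.52 (0.391 to 8.59). Both genes are highest in oligodendrocytes, whose 13 markers summed to 2366, 2145, 1666 and 2161 CPM in microglia. At day 7, Cdh13 and Pcdh15 were called higher and Cdh8 and Cdh23 lower (backgrounds 5.8% and 5.17%). Cdh13 was at 6, 17, 31 and 42 UMIs, a day 7 ratio of 4.82 (2.04 to 13.9). The Pcdh15 call, 3.57 (2.46 to 5.31), was lost without the 1 nucleus that gave 70.5% of its UMIs. Only the day 7 calls of Cdh8 and Cdh13 held in microglia under the 9 alternatives, and after thinning no call held in this class, with a reversal to 1.53 for Cdh20 at day 3 and no UMI of Cdh11 at day 1.

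**Figure D5:**
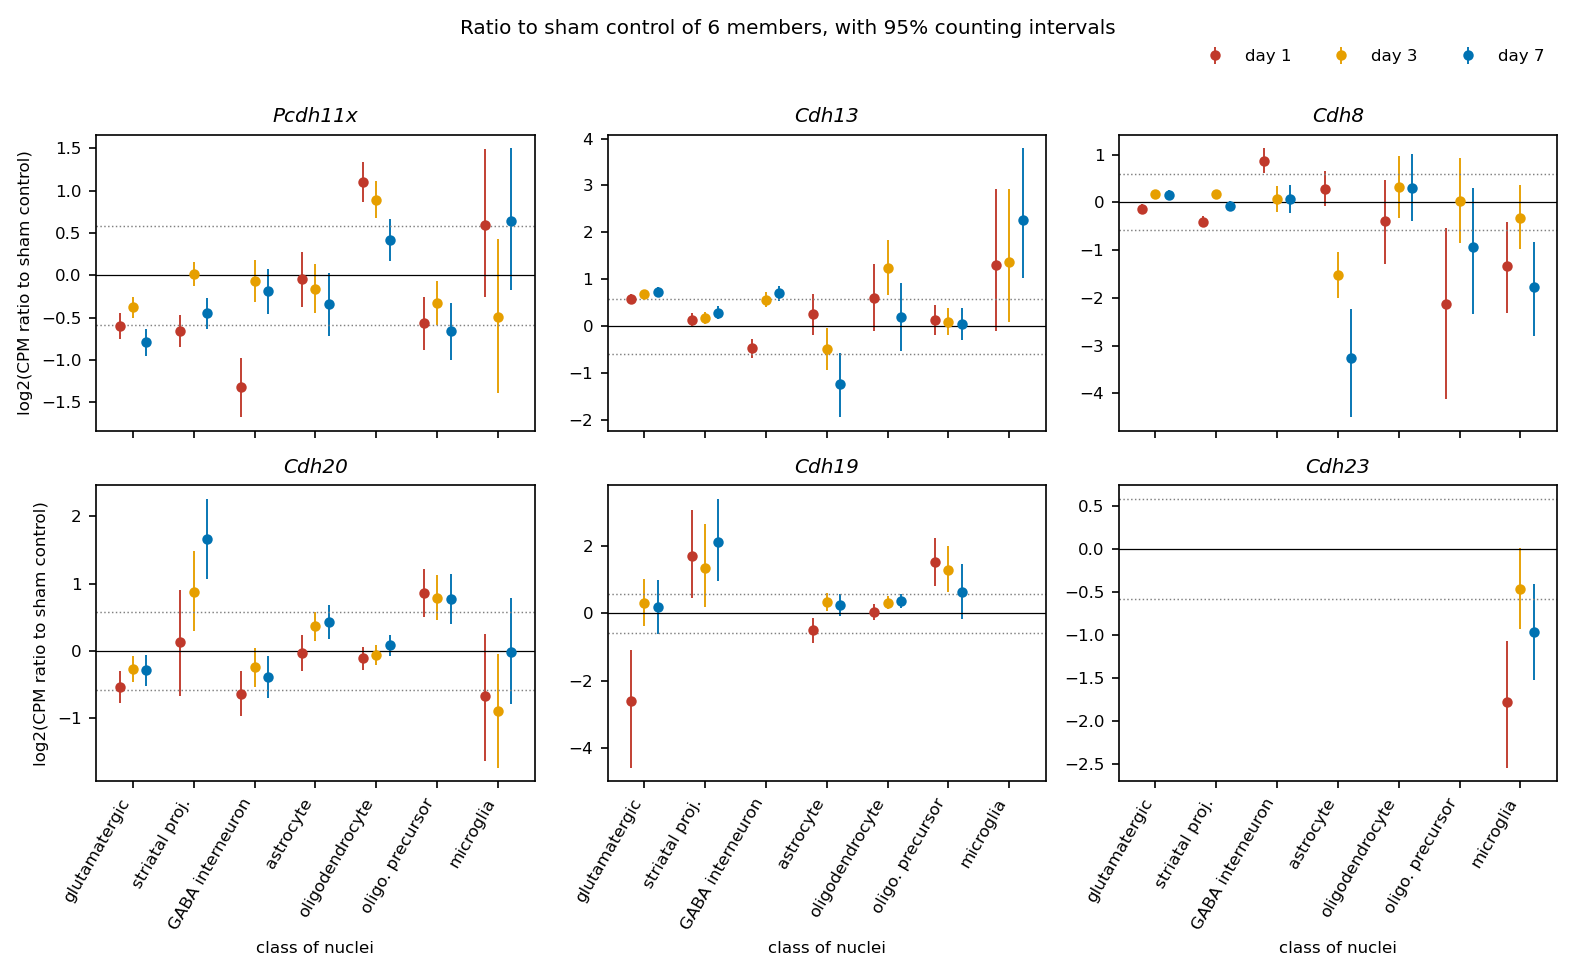
log2 ratio of CPM to sham for 6 members in the 7 classes compared, with points for day 1, day 3 and day 7, bars for the 95% counting interval and dotted lines at 1.5-fold either way. A class with too few UMIs of a gene has no point. Pcdh11x lies below 0 in neurons at day 1 and above 0 in oligodendrocytes, and Cdh8 lies below the lower line in astrocytes at day 3 and day 7.

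Other members were seldom or never called against sham. Pcdh7 and Pcdh10, both of the delta group and both tested in all 7 classes, were called in none, with ratios of 0.699 to 1.48 for Pcdh7 and 0.643 to 1.16 for Pcdh10. Outside microglia, where it was called lower at day 1 at 0.498 (0.288 to 0.842), Cdh10 was not called either, and its highest ratio was 1.40 (1.26 to 1.55) in striatal projection neurons at day 3. Pcdh20 had enough counts in glutamatergic neurons alone, and its ratio there was 1.65 (0.867 to 3.22) at day 1, an interval that includes 1. Pcdh9, the member with the most UMIs, was called in microglia at day 3 and in no other of the 7 classes and 3 days.

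Genes that work with cadherins were counted in the same way from lists chosen for their role. Of 13 catenins and junction adaptors, 72 pairs of gene and class were tested, and 9, 3 and 2 were called higher and 2, 6 and 3 lower at days 1, 3 and 7. Their shares were 12.5%, 4.17% and 2.78% higher and 2.78%, 8.33% and 4.17% lower, against 5.21%, 3.67% and 3.88% higher and 4.32%, 4.09% and 4.99% lower over all gene and class pairs, and the same backgrounds apply to the lists that follow. Pkp2, a plakophilin of desmosomes, was called higher in glutamatergic neurons on each day, at 2.06 (1.62 to 2.64), 1.94 (1.55 to 2.44) and 2.43 (1.93 to 3.09), and in striatal projection neurons at days 1 and 3. Ctnna1, the alpha catenin that links cadherins to actin, was higher in glutamatergic neurons at day 1 at 1.74 (1.43 to 2.13). Ctnna3, another alpha catenin, was higher in astrocytes at day 1 and lower at days 3 and 7, at 1.88 (1.55 to 2.29), 0.569 (0.449 to 0.718) and 0.491 (0.355 to 0.670). Ctnnb1, the beta catenin, was called once, lower in oligodendrocytes at day 7 at 0.528 (0.297 to 0.909).

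Of 24 atypical cadherin-repeat genes, which include the Fat, Dachsous, Celsr and calsyntenin genes and the desmosomal cadherins, 53 pairs were tested, with 3, 3 and 5 higher (5.66%, 5.66% and 9.43%) and 4, 1 and 2 lower (7.55%, 1.89% and 3.77%). Clstn2, a calsyntenin, was called higher on each day in astrocytes, at 3.51 (2.35 to 5.36), 1.68 (1.10 to 2.61) and 2.28 (1.44 to 3.64), and in microglia, at 7.84 (3.59 to 20.3), 3.99 (1.81 to 10.4) and 6.60 (3.03 to 17.0). It was also called higher in oligodendrocytes at days 3 and 7. The 13 partners and regulators of protocadherins gave 79 pairs, of which 2, 4 and 1 were higher (2.53%, 5.06% and 1.27%) and 1, 2 and 1 lower (1.27%, 2.53% and 1.27%). The 8 tip-link partners gave 7 pairs, with 1, 0 and 0 higher and 2, 0 and 1 lower, and the 4 nectins, listed under their older Pvrl symbols, gave 10, with 1, 2 and 0 higher and 1, 1 and 0 lower, too few pairs to be read against a background. These lists were described by their counts alone, and their calls were not checked under the alternatives or for the share of a single nucleus.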

How the data were processed

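The authors deposited, per library, a matrix of UMI counts for every barcode, made with STAR 2.7.3a (per the submitters' processing notes) on GRCm38 with GENCODE vM8 and whole gene bodies counted, per the study's methods. These raw counts were used as deposited. Gene positions came from GENCODE vM21. Empty droplets were left out with the study's settings (barcodes of at most 1000 UMIs as free RNA, false discovery rate 0.001) and 10000 Monte Carlo draws, a number chosen here. Scrublet scored doublets and 0.8% per 1000 nuclei were removed. Libraries were integrated with Seurat 5.3.0 (30 components, resolution 0.8, 2965 features without the genes described) in R 4.3.3 and clusters named from 241 markers of 27 classes. UMIs were summed per class and library. Ratios and intervals used scipy 1.17.1 (exact Poisson and exact conditional binomial). PCR duplicates are collapsed by the UMI, and the intervals cover counting error only. With 1 library per group there was no test and no p-value. A count of 0 allows up to 3 UMIs of the class total.

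Named in the text are all members called in a class (5 a day and direction at most), the leading and separated members of each class and a fixed list of 24 genes. The members, lists and thresholds were chosen with earlier results of these data known. The settings tried as alternatives include edgeR 4.0.16 TMM factors and DESeq2 1.42.0 size factors.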

Additional observations from a re-analysis of the deposited data

Results flagged for a closer look

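The results in this part were picked out because a member was called in opposite directions in different classes on the same day, and kept both calls when the nucleus with the most UMIs of the gene was left out. Another 6 cases had calls in opposite directions that were not kept on both sides without that nucleus, namely Cdh9, Cdh8 and Cdh11 at day 1 and Cdh12, Cdh20 and Cdh4 at day 3. The difference between the classes was not tested, since each class and day is 1 library, and the values are ratios to sham. The share of all genes with calls in opposite directions on the same day was not counted, so these members are not shown to stand out. The calls given below for Pcdh11x in glutamatergic neurons, Cdh20 in GABAergic interneurons, Cdh13 in astrocytes and, in both classes named, Cdh9 and Cdh6 were lost under at least 1 of the 9 alternatives used in the report.

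At day 1, Pcdh11x was at 0.662 in glutamatergic neurons, 0.635 in striatal projection neurons and 0.400 in GABAergic interneurons, and at 2.15 in oligodendrocytes. On the same day Cdh19 was at 0.164 in glutamatergic neurons, 3.28 in striatal projection neurons and 2.86 in oligodendrocyte precursors, and Cdh20 was at 0.645 in GABAergic interneurons and 1.81 in oligodendrocyte precursors. Cdh19 is scarce in neurons, at 2.82 CPM in striatal projection neurons of the sham library. With nuclei thinned to 1000 UMIs, Cdh19 had no UMI at day 1 in striatal projection neurons and was at 0.838 in precursors, and Pcdh11x was at 1.04 in striatal projection neurons. The summed oligodendrocyte markers were higher at day 1 than in sham in both classes in which Cdh19 was called higher, at 435 against 259 CPM in striatal projection neurons and 1580 against 717 CPM in precursors, and their part was not tested.

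At day 3, Cdh9 was at 1.61 in GABAergic interneurons and 0.203 in astrocytes. It was also called higher in oligodendrocytes, at 1.96, a call that was lost without the nucleus with the most UMIs. In interneurons the ratio was 1.74 in the Lhx6 and 1.00 in the Adarb2 subtype. The summed markers of striatal projection neurons in astrocytes were 1979 CPM in sham and 829 CPM at day 3, and their part was not tested. Neither the interneuron nor the astrocyte call was made from the mean of per-nucleus CPM, which gave 1.24 and 0.3295.

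At day 7, Cdh13 was at 1.66 in glutamatergic neurons, 1.62 in GABAergic interneurons and 4.82 in microglia, and at 0.4245 in astrocytes. Cdh4 was at 1.81 in glutamatergic neurons and 0.528 in astrocytes, and after thinning the glutamatergic ratio was 0.944. Cdh6 was at 0.450 in GABAergic interneurons and 1.95 in oligodendrocyte precursors, and neither call was made from the mean of per-nucleus CPM (0.626 and 1.52) or after thinning (0.752 and 1.13).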

How the results depend on the processing

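Over the 81 calls and 12 planned settings, 742 of 969 values kept their direction and side of the threshold, 212 kept the direction alone and 15 reversed. The values that kept both include 81 from leaving out the filter on low counts, which could not undo a call. Members detected stayed at 35 under both alternatives tried, and separated members numbered 8 to 11 under the planned ones. Thinning every nucleus to 1000 UMIs, which leaves fewer counts by construction, gave 4, 2 and 6 calls higher at days 1, 3 and 7 and 7, 0 and 4 lower. Pcdh1 in GABAergic interneurons then had no UMI in sham and gave no ratio. It reversed Cdh4 in glutamatergic neurons (0.904, 0.896 and 0.944 at days 1, 3 and 7), Pcdh8 in the same class at day 7 (0), Cdh19 and Pcdh11x in striatal projection neurons at day 1 (0 and 1.04), Cdh12 at day 1 and Cdh6 at day 3 in GABAergic interneurons (1.17 and 1.10), Cdh19 in oligodendrocyte precursors at day 1 (0.838), and Cdh11 at day 1 and Cdh20 at day 3 in microglia (0 and 1.53). At least 200 UMIs, which tests fewer pairs, gave 6 higher at day 1, 5 lower at day 3 and 9 higher at day 7. A 2-fold threshold gave 6, 5 and 5 higher and 9, 5 and 7 lower. The mean of per-nucleus CPM gave 2 lower at day 3 and reversed Cdh12 in astrocytes at day 3 (1.01) and Cdh11 in microglia at day 1 (0.747). Leaving out the nucleus with the most UMIs gave 7 lower at day 3 and reversed Cdh11 in microglia (0.672). Merging without integration reversed Cdh18 in oligodendrocyte precursors at day 3 (1.27). The cause was not tested for the last 3 settings. Chosen after seeing the data, exchanging the day 3 and day 7 labels swapped their counts, and leaving out both of those libraries gave 16 separated members, or 12 without the sham library, where fewer libraries have to be apart. No paired analysis was possible because each group is 1 library and the labels give no replicate numbers. Depth limits the scarce members most: 5 detected genes had fewer than 50 UMIs in all.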
